A study of Rattus norvegicus with 6 samples.

Results

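Fatty acids inside a cell are bound by small carrier proteins and, when in excess, stored as triacylglycerol in lipid droplets. The genes examined were 10 that act in these steps, namely the fatty acid binding protein genes Fabp1, Fabp4, Fabp5 and Fabp7, the fatty acid translocase gene Cd36, the perilipin genes Plin2, Plin4 and Plin5, the droplet protein gene Cidec and the triacylglycerol lipase gene Pnpla2. They were taken by symbol from a table of 19616 genes of rat liver, and each of the 10 symbols matched 1 gene. Of these 10, 9 averaged 0.1 FPKM or more over the 6 rats and were tested, and Plin4 was below that limit. Cd36 and Pnpla2 passed the limit only through the FL group, since their means in the CL group lay below 0.1 FPKM.

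The livers came from male SD rats, with 1 library per rat made from total RNA after removal of ribosomal RNA. The 3 rats of the FL group (FL2, FL5 and FL12) had received intraperitoneal CCl4, a solvent that injures hepatocytes and leads to fibrosis, mixed with olive oil at 1:1, at 2 mL/kg and 2 times a week over 5 weeks. The 3 rats of the CL group (CL5, CL6 and CL7) had received olive oil alone in the same volume. The comparison asked which genes differ between fibrotic and control liver. Expression was given as FPKM, in which fragment numbers are scaled for transcript length and for library size, so levels of different genes can be compared per length. FPKM summed to 309425 in CL5, 340467 in CL6, 315259 in CL7, 309226 in FL2, 272350 in FL5 and 272110 in FL12. Where 3 values are given for the CL rats or the FL rats, they stand in the order of the rats just named.

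Read counts were not used, but the low values gave an idea of depth. The 114 genes named U6, which are short and of similar length, had values in steps, and the most common value above 0 was 0.21 FPKM in CL5, 0.32 in CL6, 0.25 in CL7, 0.31 in FL2, 0.28 in FL5 and 0.31 in FL12. A larger step stands for a shallower library. By this estimate CL5 was the deepest, and the depth of the others was 0.656 to 0.840 of it. The estimate rests on values rounded to 2 decimals and was not tested. Genes above 0 did not follow it within the CL group, with 16260 in CL5 and 16416 in CL7. Longer genes have smaller steps, and how many fragments lie behind the low values of Cd36, Pnpla2 and Plin4 was not computed.

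In liver, the protein of Fabp1 is an abundant cytosolic carrier of hepatocytes, whereas those of Fabp4 and Fabp5 are better known from adipocytes, macrophages, endothelium and epithelia. Perilipins coat the droplet and control the access of lipases to it, and the protein of Cidec lets small droplets pass their lipid to larger ones. Many genes of fatty acid handling in hepatocytes are targets of the nuclear receptor PPAR alpha.

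Fabp4 and Plin5 were higher in fibrotic liver, Fabp1 was lower by less than the fold limit, and Plin2 and Cidec, the most abundant droplet genes of the 10, did not pass the test and overlapped between the groups. These results differed in how well they held. Fabp4 was called in 14 of 14 alternatives, whereas Plin5 lost its call in 5 of 13, among them those without CL7 (adjusted p = 0.0577), FL5 (0.0610) or FL12 (0.0530), and Fabp1 had an adjusted p under 0.05 in 7 of 14. A gene was called when limma gave an adjusted p under 0.05 (Benjamini-Hochberg over 14864 genes) and a fold change of at least 2. By this rule 2 of the 9 tested genes were higher in the FL group, against 9.29% of all genes tested, and 0 of 9 were lower, against 0.935%. At an unadjusted p under 0.05, 4 were higher (Fabp4, Plin5, Fabp5 and Cd36), against 31.5% of all genes, and 1 was lower (Fabp1), against 4.04%. Without the fold limit, 2 were higher (16.9% of all genes) and 1 was lower (1.94%). All FL rats lay above all CL rats for 3 of the 9 tested genes, against 35.7% of all genes, and all lay below for 1 of 9, against 4.78%. Cd36 is in both of these higher counts and was tested only through its FL values. With so few genes these shares say nothing about the group of genes as a whole.

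The FPKM values were not evenly centred between the groups. The median log2 fold change of FL over CL was 0.29 over all genes tested, and it was 0.08 after median scaling between rats and -0.04 after quantile normalization. The 1381 genes called higher and 139 called lower became 824 and 180 after median scaling and 453 and 231 after quantile normalization. Fold changes are on the scale of log2(FPKM + 0.1), which understates the change of genes with low values. The median over the 9 tested genes was 0.49, but it includes the 2 genes that passed the filter through the FL group alone.

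By mean FPKM over the 6 rats, Fabp1 stood first of the 10 genes at 532 FPKM and was the 66th most abundant gene of the table. Plin2 at 40.8 FPKM and Fabp7 at 40.5 FPKM came next and could not be ranked against each other, since their ranges over the rats overlapped. Cidec followed at 13.0 FPKM, and then Fabp5 at 7.61 and Fabp4 at 7.01 FPKM, but these 3 could not be ranked in the FL rats, as Fabp4 was above Cidec in FL5 and Fabp5 above it in FL12. In the CL group Fabp4 was below Fabp5 in every rat, and in the FL group it was above Fabp5 in FL2 and FL5 and below it in FL12. The remaining 4 genes had means below 1 FPKM, with Plin5 at 0.522, Cd36 at 0.188, Pnpla2 at 0.110 and Plin4 at 0.025 FPKM.

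**Figure D1:**
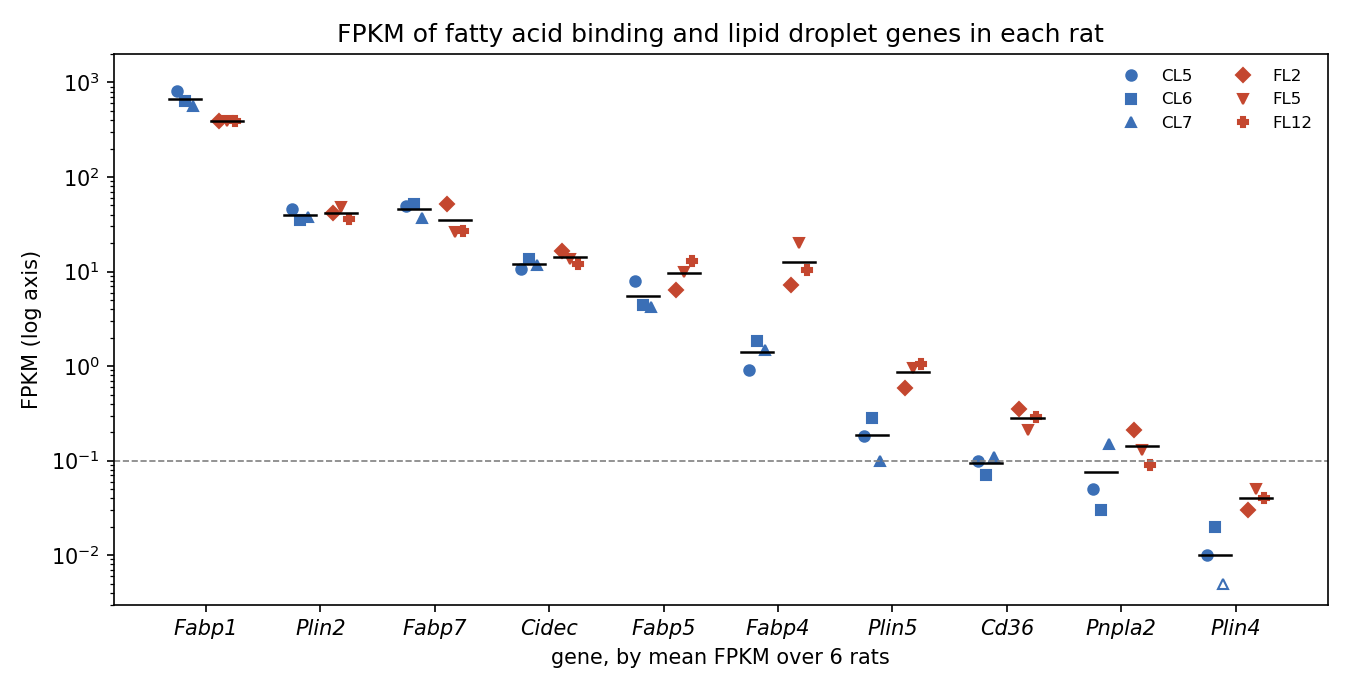
FPKM of the 10 genes on a log axis, with 1 point per rat in blue for CL and red for FL, a black bar for the mean of each group of 3 rats and a dashed line at 0.1 FPKM, the minimum mean of a tested gene. The open symbol marks a value of 0 drawn near the foot of the axis (Plin4 in CL7). The groups are separate for Fabp1, Fabp4, Plin5, Cd36 and Plin4 and overlap for the others.

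Fabp1 (chromosome 4) encodes the liver type of fatty acid binding protein. Its level was 814 FPKM in CL5, 641 in CL6 and 565 in CL7, against 394 in FL2, 388 in FL5 and 391 in FL12. The FL rats were all lower than the CL rats, and they were close to one another, whereas the CL rats were spread, with CL5 the highest. Means were 673 ± 128 FPKM (SD, n = 3) in the CL group and 391 ± 3.16 FPKM (SD, n = 3) in the FL group. The log2 fold change was -0.77 (SE 0.20, 95% confidence interval -1.23 to -0.30) with an adjusted p of 0.0356 by limma, so Fabp1 passed the limit on p but not the limit on fold change. Relative to the median of all genes the difference was -1.06. It stayed negative under every alternative run, from -0.99 after median scaling to -0.55 after quantile normalization, while its adjusted p was under 0.05 in 7 of 14 alternatives and reached 0.197. The adjusted p was 0.0983 without CL5, 0.0962 without CL6, 0.0651 without CL7, 0.0888 without FL5 and 0.0845 without FL12. In pieces of whole liver, fewer cells of a type and less RNA per cell cannot be told apart.

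Markers of hepatocytes were read beside Fabp1. In this and the other marker lists, the most abundant gene is that with the highest mean over the 6 rats, which need not lead in each group. Of 8 hepatocyte markers, 0 were higher and 0 lower by limma, with a median log2 fold change of -0.21. The 95% confidence interval was -2.63 to 1.87 for Alb and -0.80 to 1.42 for Tf. It was this wide for Alb although rats of a group lay close together (32272 ± 1010 and 24803 ± 572 FPKM, SD). At such intervals a call was hardly possible, so its absence says little about Alb and Tf. The intervals of Asgr1 (-0.72 to 0.23), Hnf4a (-0.48 to 0.06), Apob (-0.68 to 0.25) and Cps1 (-0.62 to 0.62) left out a fold change of 2. Those of Ttr (-1.61 to 0.34) and Apoa1 (0.096 to 1.36) did not. The summed level of the 8 markers was 48240 FPKM in CL5, 45640 in CL6 and 46127 in CL7, and 38257 in FL2, 40556 in FL5 and 38886 in FL12. This sum is mostly that of albumin (Alb), the most abundant marker, which had means of 32272 and 24803 FPKM in the CL and FL groups, and the defining marker Asgr1 had 103 and 88.1 FPKM. The markers did not share a direction. Of the 8, 4 (Alb, Ttr, Apob and Hnf4a) were lower in every FL rat than in every CL rat (4.78% of all genes). Another 2 (Tf and Apoa1) were higher in every FL rat (35.7%), and 2 overlapped. All of these markers but Alb and Asgr1 were picked out after their values were seen. Means in the CL and FL groups were 5779 and 3760 FPKM for Ttr, and 1149 and 1919 FPKM for Apoa1. What part these levels have in the difference of Fabp1 was not tested.

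Fabp4 (chromosome 2) encodes the adipocyte type of fatty acid binding protein, which macrophages and endothelial cells also make. Its level was 0.90 FPKM in CL5, 1.85 in CL6 and 1.48 in CL7, against 7.27 in FL2, 20.1 in FL5 and 10.4 in FL12. Every FL rat was above every CL rat, and FL5 was the highest. Means were 1.41 ± 0.479 FPKM (SD, n = 3) and 12.6 ± 6.68 FPKM (SD, n = 3), a ratio of 8.94. The log2 fold change of 3.00 (SE 0.38, 95% confidence interval 2.12 to 3.88) had an adjusted p of 0.00425 by limma and was 2.71 above the median of all genes. It was the largest change among the 9 tested genes. Fabp4 was called higher under every alternative run, with log2 fold changes of 2.41 to 3.33 and adjusted p between 0.00292 and 0.0305.

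Markers of cells in which Fabp4 is known were read beside it. Of 6 markers of lipid-laden macrophages, 6 were higher in the FL group, and their summed level was 10.8 FPKM in CL5, 13.6 in CL6 and 10.8 in CL7, and 94.0 in FL2, 250 in FL5 and 170 in FL12. All FL rats were above all CL rats in this sum. The most abundant of them was Gpnmb, a glycoprotein of phagocytes, with means of 4.003 and 101 FPKM in the CL and FL groups (log2 fold change 4.54). The other defining marker, the lipid-sensing receptor gene Trem2, had 0.0833 and 4.13 FPKM (log2 fold change 4.46) and was thus tested only through the FL group.

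Of 8 general macrophage markers, 3 were higher (Marco, Cd68 and Csf1r) and 0 lower, against 9.29% and 0.935% of all genes tested. The sums of the 8 markers were 120 FPKM in CL5, 120 in CL6, 125 in CL7, 259 in FL2, 233 in FL5 and 140 in FL12. Their defining markers Cd68 and Csf1r had log2 fold changes of 1.69 and 1.13 (Csf1r was under the fold limit at 0.91 after median scaling, 0.93 after quantile normalization and 0.99 without FL5), and the Kupffer cell gene Clec4f, the most abundant, had 47.2 and 50.1 FPKM in the CL and FL groups. Of 9 endothelial markers matched among 10, 1 was higher (Vwf) and 0 lower, with sums of 69.5 to 77.7 FPKM in the CL rats and 88.5 to 94.5 FPKM in the FL rats. The most abundant endothelial gene was Kdr at 21.7 and 19.0 FPKM, and the defining marker Cdh5 had 7.45 and 9.38 FPKM.

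Adipocyte markers were low in both groups. Of 4 tested adipocyte markers 0 were higher and 0 lower by limma, and the sum of the 6 matched among 8 was 8.66 to 12.5 FPKM in the CL rats and 10.8 to 14.2 FPKM in the FL rats, with Cfd the most abundant at 5.72 and 7.58 FPKM. The defining marker adiponectin (Adipoq) lay between 0.34 and 0.74 FPKM over the 6 rats. Plin1, the perilipin of adipocytes, was listed at 0 in every rat but FL5 (0.01 FPKM), and so was Adrb3 (0.04 FPKM in FL5). Of 8 markers of stellate cells or myofibroblasts, 4 were higher (Des, Pdgfrb, Dcn and Col1a1) and 0 lower, against 9.29% and 0.935% of all genes tested. The sum of the 8 markers was 44.6 to 51.0 FPKM in the CL rats and 75.4, 187 and 153 FPKM in the FL rats. The most abundant of these over the 6 rats was Col1a1 (2.67 and 64.0 FPKM), although in the CL group Colec11 was higher (19.5 FPKM), and of the defining markers Pdgfrb had 2.79 and 9.61 FPKM and Lrat 8.57 and 8.12 FPKM. Of 5 tested markers of cholangiocytes, 0 were higher and 0 lower, with sums of 5.39 to 7.75 FPKM in the CL rats and 5.38 to 11.4 FPKM in the FL rats. Cftr was 1 of the 5 and was tested only through the FL group (0.0867 and 0.483 FPKM, adjusted p = 0.0745). The most abundant was Epcam (4.90 and 6.29 FPKM), and the defining markers Krt19 (0.590 and 0.637 FPKM) and Krt7 (0.430 and 0.230 FPKM) were low. The part of any of these cells in the level of Fabp4 was not tested.

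Fabp5 (chromosome 2) encodes the epidermal type of the carrier. Its level was 8.03 FPKM in CL5, 4.42 in CL6 and 4.24 in CL7, against 6.34 in FL2, 9.81 in FL5 and 12.8 in FL12. The groups overlapped, because CL5 was above FL2. The means of 5.56 ± 2.14 and 9.65 ± 3.23 FPKM (SD, n = 3 each) gave a log2 fold change of 0.79 (SE 0.31) with an adjusted p of 0.113 by limma, which did not pass. It was called higher only without FL2, at a log2 fold change of 1.06 and an adjusted p of 0.0435, and the adjusted p lay between 0.0435 and 0.302 over 14 alternatives.

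Fabp7 (chromosome 20) encodes the brain type, best known from glial cells. Its level was 49.2 FPKM in CL5, 52.1 in CL6 and 37.1 in CL7, against 51.6 in FL2, 26.2 in FL5 and 27.0 in FL12. FL2 lay among the CL rats, and FL5 and FL12 lay below all of them. The means of 46.1 ± 7.91 and 34.9 ± 14.4 FPKM (SD, n = 3 each) gave a log2 fold change of -0.46 (SE 0.27) with an adjusted p of 0.253 by limma, which did not pass. Without FL2 the log2 fold change was -0.78 with an adjusted p of 0.0199, still short of the fold limit, and the adjusted p reached 0.537 in other alternatives. The glial genes were low beside it. Sox10, a defining marker, was listed at 0 in 4 of 6 rats and at most at 0.04 FPKM, and the most abundant of 5 glial genes was Mbp at 1.46 and 1.43 FPKM, with sums of 1.77, 2.07 and 1.80 FPKM in the CL rats and 1.65, 1.96 and 2.26 FPKM in the FL rats. Of 2 glial genes tested, 0 were higher and 0 lower.

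The make-up of the 4 carrier transcripts shifted with these values. Their summed level was 872 FPKM in CL5, 700 in CL6 and 608 in CL7, and 460 in FL2, 444 in FL5 and 441 in FL12. Fabp1 made up 93.3%, 91.7% and 92.9% of that sum in the CL rats and 85.8%, 87.4% and 88.6% in the FL rats, and the groups did not overlap. The share of Fabp4 was 0.103% to 0.264% in the CL rats and 1.58% to 4.52% in the FL rats. The share of Fabp5 was 0.632% to 0.921% in the CL rats and 1.38% to 2.90% in the FL rats, without overlap although its FPKM overlapped, and a share also rises when the sum falls. The share of Fabp7 was 5.64% to 7.44% in the CL rats and 5.91% to 11.2% in the FL rats, with overlap. Fabp1 remained the main carrier transcript in every rat.

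Of 12 other intracellular lipid-binding proteins, 6 genes were tested, 1 was higher and 0 lower in the FL group, and the median log2 fold change was 0.85. The gene called was Rbp2, a cellular retinol-binding protein, with 0.06 FPKM in CL5, 0 in CL6 and 0.07 in CL7, and 0.53 in FL2, 1.27 in FL5 and 1.52 in FL12. Its CL mean of 0.0433 FPKM lay below the limit of 0.1 FPKM, so it was tested only through the FL group. The log2 fold change was 3.00 with an adjusted p of 0.00592 by limma, and it fell below the fold limit at a pseudocount of 1 (0.98). Among the FABP genes of the list, which were picked out after their values were seen, Fabp12 lay between 0.13 and 0.26 FPKM in the CL rats and between 0.37 and 0.65 FPKM in the FL rats with an adjusted p of 0.0516, and Fabp2 and Fabp3 had adjusted p of 0.158 and 0.407. In the RefSeq gene order of GRCr8, Fabp12, Fabp4, Fabp9, Pmp2 and Fabp5 are neighbours on chromosome 2.

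Cd36 (chromosome 4) encodes a membrane protein that takes up long-chain fatty acids and oxidized lipoproteins. Its level was 0.10 FPKM in CL5, 0.07 in CL6 and 0.11 in CL7, against 0.35 in FL2, 0.21 in FL5 and 0.29 in FL12. All FL rats lay above all CL rats, at levels that were low in both groups. The means of 0.0933 ± 0.0208 and 0.283 ± 0.0702 FPKM (SD, n = 3 each) gave a log2 fold change of 0.98 (SE 0.36) with an adjusted p of 0.0943 by limma, which did not pass either limit. Over 13 alternatives the log2 fold change lay between 0.23 and 1.497 and the adjusted p between 0.0251 and 0.556, and Cd36 was called in none of them. RefSeq places related copies next to Cd36 in GRCr8 (Cd36l1 and Cd36-ps1), and related rows of the table, RGD1565355 and LOC685953, were at most at 0.06 FPKM in any rat. The paper computed FPKM from reads with a unique place in the genome. Reads shared between such copies would then be lost, so the level of Cd36 is uncertain.

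Of 9 other fatty acid uptake genes tested, 1 was higher and 0 lower, and their median log2 fold change was 0.25, near that of all genes. The gene called was Vldlr, a receptor for triacylglycerol-rich lipoproteins, with 0.35, 0.44 and 0.29 FPKM in the CL rats and 0.80, 1.51 and 2.06 FPKM in the FL rats. With a log2 fold change of 1.68, its adjusted p was 0.0164 by limma. The call was lost in 6 of 13 alternatives, among them those without CL5 (adjusted p = 0.0521), CL7 (0.0664) or FL5 (0.0625), and the adjusted p ranged from 0.00518 to 0.0664. The most abundant uptake genes were Slc27a2, a fatty acid transporter and acyl-CoA synthetase of hepatocytes, at 216 and 205 FPKM in the CL and FL groups, and Got2 at 87.9 and 88.8 FPKM, both with overlapping groups.

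Plin2 (chromosome 5) encodes the perilipin that coats most droplets of hepatocytes. Its level was 46.0 FPKM in CL5, 34.9 in CL6 and 38.0 in CL7, against 42.1 in FL2, 48.1 in FL5 and 36.0 in FL12. The groups overlapped throughout. The means of 39.6 ± 5.70 and 42.1 ± 6.04 FPKM (SD, n = 3 each) gave a log2 fold change of 0.09 (SE 0.15, 95% confidence interval -0.27 to 0.44) with an adjusted p of 0.712 by limma. The sign turned to -0.14 after median scaling and to -0.015 without FL5, so no direction can be given.

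Plin5 (chromosome 9) encodes a perilipin of oxidative tissues that links droplets to mitochondria. Its level was 0.18 FPKM in CL5, 0.28 in CL6 and 0.10 in CL7, against 0.58 in FL2, 0.95 in FL5 and 1.04 in FL12. Every FL rat was above every CL rat. The means of 0.187 ± 0.0902 and 0.857 ± 0.244 FPKM (SD, n = 3 each) gave a log2 fold change of 1.75 (SE 0.36, 95% confidence interval 0.93 to 2.58) with an adjusted p of 0.0154 by limma, 1.46 above the median of all genes. The call was lost without CL7 (log2 fold change 1.52, adjusted p = 0.0577), FL5 (1.67, 0.0610) or FL12 (1.61, 0.0530), and the adjusted p lay between 0.0124 and 0.0611 over 13 alternatives. The call of Plin5 was also lost after quantile normalization (log2 fold change 1.17) and at a pseudocount of 1 (0.64), at which the fold limit was not met.

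Plin4 (chromosome 9), a perilipin of adipocytes and muscle, was close to the lowest value that the table can show with 2 decimals. It was listed at 0.01 FPKM in CL5, 0.02 in CL6 and 0 in CL7, and at 0.03 in FL2, 0.05 in FL5 and 0.04 in FL12. All FL rats were above all CL rats, but the values are a few steps of the last decimal. It was not tested in the main comparison, and without the filter on low values it had a log2 fold change of 0.35 with an adjusted p of 0.0825. Plin4 and Plin5 are next to each other in the RefSeq gene order of GRCr8.

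Cidec (chromosome 4) encodes a protein of droplet contact sites. Its level was 10.5 FPKM in CL5, 13.4 in CL6 and 11.7 in CL7, against 16.6 in FL2, 13.5 in FL5 and 12.1 in FL12. The groups overlapped, with FL2 the highest rat. The means of 11.9 ± 1.45 and 14.1 ± 2.33 FPKM (SD, n = 3 each) gave a log2 fold change of 0.24 (SE 0.15, 95% confidence interval -0.12 to 0.59) with an adjusted p of 0.304 by limma. After median scaling the log2 fold change was 0.01. The interval leaves out a doubling of this transcript, as does that of Plin2.

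The summed level of Plin2, Plin4, Plin5 and Cidec was 56.7 FPKM in CL5, 48.6 in CL6 and 49.8 in CL7, and 59.3 in FL2, 62.6 in FL5 and 49.2 in FL12, with overlapping groups. Plin2 made up 70.9% to 81.1% of it over the 6 rats. Plin5 made up 0.201% to 0.576% in the CL rats and 0.978% to 2.11% in the FL rats. The gene of this family that was called thus contributed little to its sum.

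Of 19 other lipid droplet genes tested, 2 were higher and 0 lower, and their median log2 fold change of 0.02 lay below that of all genes. Plin3, the perilipin that moves between cytosol and nascent droplets, had 6.25, 9.50 and 6.48 FPKM in the CL rats and 19.5, 22.2 and 21.8 FPKM in the FL rats. The FL rats were all above the CL rats and close to one another. Its log2 fold change of 1.53 (SE 0.17) had an adjusted p of 0.00308 by limma, and it was called under every alternative run, with adjusted p of 0.00219 to 0.0233. By mean FPKM, Plin3 (14.3 FPKM over the 6 rats) was thus the perilipin next to Plin2, while Plin5 lost its call in 5 of 13 alternatives.

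G0s2, an inhibitor of the lipase encoded by Pnpla2, had 10.4, 7.07 and 6.51 FPKM in the CL rats and 28.1, 15.9 and 24.3 FPKM in the FL rats. All FL rats were above all CL rats. The log2 fold change was 1.49 (SE 0.25) with an adjusted p of 0.00865 by limma, and G0s2 was called under every alternative run, with adjusted p of 0.00688 to 0.0446. The most abundant droplet genes, Hsd17b11 (158 and 133 FPKM in the CL and FL groups) and Hsd17b13 (77.8 and 91.8 FPKM), were not called. The relatives of Cidec were not called either, with means of 72.3 and 65.6 FPKM for Cideb and 3.23 and 2.65 FPKM for Cidea.

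Pnpla2 (chromosome 1) encodes adipose triglyceride lipase, which starts the breakdown of stored triacylglycerol. It was listed at 0.05 FPKM in CL5, 0.03 in CL6 and 0.15 in CL7, and at 0.21 in FL2, 0.13 in FL5 and 0.09 in FL12. The groups overlapped, and CL7 was above FL5 and FL12. The log2 fold change was 0.49 (SE 0.46) with an adjusted p of 0.469 by limma, and its sign turned to -0.086 after quantile normalization. A related row described as similar to Pnpla2, LOC100911615, lay between 0.03 and 0.11 FPKM. Reads shared between the copies may thus be lost, and the level of this lipase is uncertain.

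Of 12 other lipases and cofactors tested, 1 was higher and 1 lower, and the median log2 fold change was -0.00. Lpl, the lipoprotein lipase, had 3.39, 2.86 and 3.00 FPKM in the CL rats and 8.73, 13.8 and 24.5 FPKM in the FL rats. Its log2 fold change was 2.18 (SE 0.32) with an adjusted p of 0.00595 by limma, and it was called under every alternative run, with adjusted p of 0.00248 to 0.0382. Lpl is also 1 of the 6 markers of lipid-laden macrophages above.

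Ces1d, a carboxylesterase of hepatocytes that hydrolyses triacylglycerol, had 119, 195 and 138 FPKM in the CL rats and 40.4, 81.9 and 37.0 FPKM in the FL rats. All FL rats were below all CL rats. Its log2 fold change was -1.57 (SE 0.32) with an adjusted p of 0.0149 by limma, and the adjusted p was 0.0506 without CL6, 0.0521 without CL7 and 0.0646 without the filter on low values, in a range of 0.00980 to 0.0646.

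Of 12 genes of triacylglycerol synthesis tested, 1 was higher and 0 lower, and the median log2 fold change was 0.44. Agpat1, an acyltransferase that makes phosphatidic acid, had 0.59, 0.87 and 0.62 FPKM in the CL rats and 1.76, 2.18 and 1.89 FPKM in the FL rats (log2 fold change 1.38, adjusted p = 0.00686). It was under the fold limit at a pseudocount of 1 (0.80) and after quantile normalization (0.85). The most abundant genes of the list were Dgat2, which completes triacylglycerol, at 51.5 and 54.4 FPKM in the CL and FL groups, and Gpam, which starts glycerolipid synthesis, at 39.8 and 44.1 FPKM, and both were not called. Lpin1, picked out after its values were seen, had 38.3, 36.6 and 40.9 FPKM in the CL rats and 21.9, 22.5 and 20.8 FPKM in the FL rats. Its log2 fold change of -0.83 had an adjusted p of 0.00414 by limma and reached the fold limit only after median scaling (-1.05), with adjusted p of 0.00345 to 0.0235 over the alternatives.

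PPAR receptors, their partners and PPAR alpha targets were read because Fabp1, Plin2, Plin5 and Cidec are known targets of these receptors. Of 24 rows tested, 2 were higher and 3 lower, and the median log2 fold change was 0.12. Ppara itself had 34.8, 19.0 and 23.8 FPKM in the CL rats and 18.3, 24.9 and 42.0 FPKM in the FL rats, with overlap (log2 fold change 0.10). Pparg lay between 0.67 and 1.84 FPKM in the CL rats and between 0.35 and 1.59 FPKM in the FL rats. Ppard was called lower, with 3.41, 3.27 and 2.40 FPKM in the CL rats and 0.89, 1.06 and 0.71 FPKM in the FL rats (log2 fold change -1.66, adjusted p = 0.00456). These receptors were set out for their role, and of them Ppard alone passed the test.

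The targets moved in both directions. Vnn1, a pantetheinase, had 5.90, 6.15 and 3.69 FPKM in the CL rats and 10.5, 12.9 and 17.5 FPKM in the FL rats (log2 fold change 1.36, adjusted p = 0.0106). Fgf21, a hormone of fasting liver, had 4.65, 1.86 and 3.11 FPKM in the CL rats and 11.4, 5.01 and 17.8 FPKM in the FL rats (log2 fold change 1.71, adjusted p = 0.0412), but its call was lost in 10 of 14 alternatives, with adjusted p up to 0.126. Among those were the fits without CL5 (adjusted p = 0.0523), CL6 (0.115), CL7 (0.114), FL2 (0.0826) and FL12 (0.109).

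Pdk4, a kinase that turns off pyruvate dehydrogenase, was lower, with 41.2, 41.6 and 35.9 FPKM in the CL rats and 23.7, 16.3 and 13.7 FPKM in the FL rats (log2 fold change -1.17, adjusted p = 0.00861). Cyp4a2, a fatty acid omega-hydroxylase, had 2 rows. In one the level was 154, 129 and 86.7 FPKM in the CL rats and 24.2, 40.7 and 29.3 FPKM in the FL rats (log2 fold change -1.96, adjusted p = 0.00437). In the other the means were 44.2 and 43.5 FPKM. Reads shared between similar genes may be lost, and the gene is uncertain. Vnn1, Pdk4, Ppard and the first row of Cyp4a2 were called under every alternative run.

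Taking the 6 lists as a whole, 8 of 82 rows tested were higher (9.76%, against 9.29% of all genes) and 4 were lower (4.88%, against 0.935%). Of the 8, Rbp2 was tested only through the FL group.

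**Figure D2:**
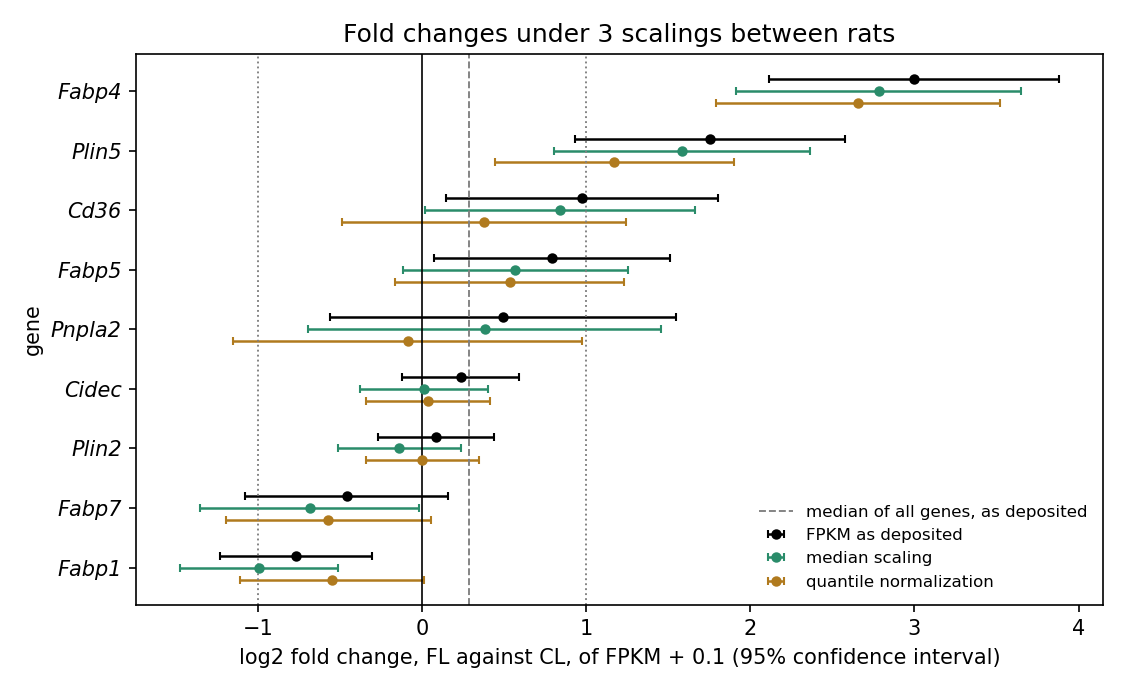
Log2 fold change of FL over CL for the 9 tested genes with 95% confidence intervals (limma, 3 rats per group), from FPKM as deposited (black), after median scaling (green) and after quantile normalization (ochre). The dashed line marks the median of all genes tested (0.29), and the dotted lines mark a fold change of 2 in each direction. Fabp4 keeps its distance from the fold limit under all 3 scalings, whereas Plin2 turns negative after median scaling and Pnpla2 after quantile normalization.

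Genes with patterns most like those of Fabp1 and Fabp4 were listed by Pearson's r over the 6 rats, on the log2 scale used for the fold changes, among 10159 other protein-coding genes that averaged 1 FPKM or more. For Fabp1 they were Fam13a (r = 0.989), Gpx4 (0.986), Adtrp (0.981), Tmem140 (0.979) and Ern1 (0.979), and 33 genes had r of at least 0.95. Gpx4, a peroxidase that reduces lipid hydroperoxides, had 59.1, 52.1 and 48.9 FPKM in the CL rats and 44.2, 43.0 and 44.5 FPKM in the FL rats. Being listed for its likeness to Fabp1, it shares the spread among CL rats and the closeness of FL rats by that choice. For Fabp4 they were RGD1307929 (r = 0.9997), Ddx41 (0.998), Tnfaip8 (0.998), Ttyh3 (0.997) and Lgals3 (0.996), and 673 genes had r of at least 0.95. Lgals3, the galectin that is among the markers of lipid-laden macrophages, had 1.88, 3.23 and 2.21 FPKM in the CL rats and 9.29, 24.0 and 12.5 FPKM in the FL rats. The r describe these 6 rats, which differ by group, and carry no test.

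Promoters were read because Fabp1 was the most abundant gene and a known target of PPAR alpha, whose binding element is AGGTCA repeated in the same direction with 1 base between (DR1). Sequences from 250 bases before to 50 bases after the start were taken from RefSeq (GRCr8), in which 8 of the 10 genes had an entry (not Fabp4 and Fabp5), with 13 entries in all, 5 of them for Plin4 and 2 for Plin2. Both strands were searched for AGGTCA, for the DR1 with at most 2 mismatches outside the base between, which can contain the first motif, and for TATAAA. Of 33469 promoters in the table, 16.2% held AGGTCA, 3.77% held such a DR1, 0.439% held a DR1 with at most 1 mismatch and 14.2% held TATAAA. Among the 13 entries, a DR1 was found only in Fabp1, with 1 mismatch and on the minus strand, at bases -77 to -65 from the start, and it was followed by TATAAA at bases -40 to -35. AGGTCA was also found in Plin5 (bases -157 to -152) and in Fabp7 (bases -196 to -191), and TATAAA, on the minus strand, in Cd36 (bases -175 to -170). The stretch of the Fabp1 promoter that holds both motifs lies at chr4:104749253-104749311 (GRCr8, plus strand), before the start of the gene, and is shown with the DR1 and TATAAA in capitals.
Fabp1: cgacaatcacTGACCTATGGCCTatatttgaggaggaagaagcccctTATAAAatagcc
Such a match describes letters in the window and no binding was measured.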

How the data were processed

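Liver RNA of 3 FL and 3 CL rats was used, 1 library per rat, and replicates are separate rats. The submitters' processing notes name TopHat2 and GRCh38, a human build, although the gene identifiers are Ensembl's for the rat, so no coordinates were taken from the table. The authors deposited expression as FPKM with 2 decimals, and 2 further value columns were not used because their names match no sample. Read counts were not used, so the depth of each rat was estimated only relative to the deepest. SDs are the spread over rats. SEs and confidence intervals are those of limma, which combine that spread with a prior variance. For very abundant genes such as Alb (SE 0.98) they can be far wider than the rats' own spread.

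Groups were compared with limma 3.58.1 (R 4.3.3) on log2(FPKM + 0.1), letting the prior variance follow the mean (trend), over the genes averaging 0.1 FPKM or more. Calls needed a Benjamini-Hochberg adjusted p below 0.05 and at least a 2-fold change. The script was tested on simulated data. The 10 genes and the lists were chosen with earlier results of these data known. Named were the 10 genes, from each of 6 wider lists the called genes (up to 5 in each direction) and the 2 most abundant, the 5 genes most like Fabp1 and Fabp4, and of each marker list the most abundant and the defining genes. Some genes that this rule takes are not reported here. The alternatives tried were pseudocounts of 1 and 0.01, no filter or a minimum mean of 1 FPKM, median scaling (over 9201 genes above 1 FPKM in every rat), quantile normalization, a robust prior, a prior without trend, no fold limit, and leaving out each rat. Promoters and figures used Python 3.11.15, pandas 2.3.3 and matplotlib 3.10.9.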

Additional observations from a re-analysis of the deposited data

How the results depend on the processing

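For the 9 tested genes, 113 of 122 log2 fold changes under alternatives kept their direction and their call or lack of one, and 5 (all of Plin5) lost the call. Fabp5 gained a call without FL2, and 3 changed sign. Plin2 went to -0.14 after median scaling and to -0.015 without FL5 (highest 0.20 without CL5), and Pnpla2 to -0.086 after quantile normalization. Alternatives were also run for the called genes of the wider lists and for Lpin1, Trem2, Gpnmb, Lgals3, Cd68 and Csf1r. Of their 250 values, 224 kept their call or lack of one, 25 lost it and 1 (Lpin1) gained it. Only Lpin1 could gain a call, since the others had one in the main comparison. The remaining named genes were not run. The cause of these changes was not tested.

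The 2 genes of the 10 called higher became 1 (Fabp4) at a pseudocount of 1, at a mean of at least 1 FPKM, where Plin5 is not tested, and after quantile normalization, and 1 to 3 with a rat left out. The call of Plin5 was lost without CL7, FL5 or FL12. The 0 called lower became 1 (Fabp1) with no fold limit, and stayed at 0 with each rat left out. In the 6 wider lists, the 8 called higher became 5 at a pseudocount of 1, 5 after quantile normalization and 15 with no fold limit, and 7 to 8 with a rat left out, and the 4 called lower became 7 with no fold limit, and 3 to 6 with a rat left out.

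Over all genes, the 1381 called higher became 462 at a pseudocount of 1, 846 with no filter on low values, 854 at a mean of at least 1 FPKM, 824 after median scaling, 453 after quantile normalization and 2518 with no fold limit. The 139 called lower became 72 at a pseudocount of 1, 78 with no filter, 180 after median scaling, 231 after quantile normalization and 288 with no fold limit. With a rat left out, 740 (without CL7) to 1831 (without FL2) were higher, 745 without FL5, and 81 (without CL6 or CL7) to 160 were lower. The CL and FL groups are separate rats without pairing, so no paired analysis was run. How far depth limits the low values was not tested.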
